A study of Mus musculus with 16 samples.

Results

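Ribosome biogenesis factors are the proteins that make ribosomal RNA, cut and modify it, and assemble it with ribosomal proteins. A list of 52 such genes, a class of known MYC targets, was followed in mouse lung tumors with and without Max. The members are listed by name and known role, and the list was chosen with earlier results of these data known. Of the 52 symbols, 51 were among the 23284 symbols of each count file, and all 51 passed a filter on low counts that kept 14825 genes. Noc2l was missing from the counts and enters only the promoter windows given below. The members fall into 5 roles: 5 genes of transcription by RNA polymerase I (Pol I), 7 of small nucleolar ribonucleoprotein particles (snoRNPs) and abundant nucleolar proteins, 19 of small-subunit assembly, 17 of large-subunit assembly, and 3 other nucleolar proteins.

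Ribosomes are built in the nucleolus. Pol I transcribes a long precursor RNA, snoRNPs guide its methylation and pseudouridylation, and separate sets of factors fold and cut the parts that become the small and the large subunit before both are exported to the cytoplasm. MYC, MYCL and MYCN bind DNA as dimers with MAX, preferentially at a short palindrome called the E-box (CACGTG), and genes of ribosome production are among their best known targets. MYCL and MYCN are known for amplification in small cell lung cancer, the neuroendocrine lung tumor of which mice lacking Rb1 and Trp53 are a common model.

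RNA was sequenced from 9 tumors labelled RPMax-/- (genotype Max -/-) and 7 labelled RPMaxWT (genotype wild type), all from mice of mixed 129/SvJ and C57BL/6 strain. The letters RP are shared by both groups and are not spelled out in the labels, so alleles other than Max that all tumors carry cannot be named from them. Gene deletion followed delivery of an adenovirus with Cre recombinase under the CMV promoter into the trachea, and the viral promoter does not restrict Cre to 1 cell type. The sources used here give no age, no time after infection and no mouse for a tumor, so a p-value covers only the spread among the 16 tumors, which may be technical in part. "Null" and "wild-type" below mean labelled so.

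Reads in genes ranged from 8.66 to 15.1 M (megareads) in null and from 9.15 to 13.2 M in wild-type tumors, and the lowest count of any member in any tumor was 73. Max itself measured 64.2 to 83.5 CPM (counts per M reads in genes) in null and 52.4 to 75.9 CPM in wild-type tumors. Its count covers the whole gene, so it does not check the deletion. The share of reads aligned to more than 1 place was 9.17% to 11.8% in null and 12.3% to 22.2% in wild-type tumors, with no overlap (exact two-sided permutation test over 11440 splits, p = 8.74e-05, the smallest they can give, adjusted p = 0.000524 over 6 library properties). Long transcripts were less well represented in wild-type libraries: the correlation across genes of a library's relative expression with transcript length was -0.15 ± 0.24 (SD, n = 7) against 0.14 ± 0.089 (SD, n = 9) in null libraries (exact permutation test, p = 0.00219, adjusted p = 0.00656). Wild-type tumors 7, 4 and 2 had the lowest values. Reads of the Rn45s gene took 0.270% ± 0.211 (SD) of reads in genes in null and 0.831% ± 0.898 in wild-type tumors (exact permutation test, adjusted p = 0.0374). Whether Rn45s reads came from the rRNA precursor or from mature rRNA was not tested. Reads in no gene (19.1% ± 0.850 against 22.1% ± 3.46) and in more than 1 gene (0.884% ± 0.0421 against 0.968% ± 0.0808) were also lower in null tumors (both adjusted p = 0.0308). Neuroendocrine markers were abundant in every tumor, summing to 3906 CPM or more, and 0 of 10 were called in the edgeR comparison below (none had an adjusted p under 0.05). Macrophage markers were lower in null tumors for 3 of 7 genes (summed 109 to 234 against 172 to 431 CPM), as was 1 of 6 neutrophil markers (summed 17.5 to 60.0 against 36.8 to 108 CPM), and no endothelial, fibroblast or club cell marker was called. Of alveolar markers, 1 of 7 type 2 genes was higher and 1 of 6 type 1 genes lower. The part of these properties in the results was not tested, except where a value is given below.

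Nearly all members that changed were higher in tumors without Max. With edgeR's quasi-likelihood test and Benjamini-Hochberg adjustment over all 14825 genes at 0.05, 22 of the 51 members were called, against 16% of all genes tested. In null tumors 19 members (37.3%) rose, against 7.4% of all genes, and 3 members (5.88%) fell, against 8.64% of all genes. Of 139 further biogenesis genes, given below, 6.47% rose and 10.1% fell. Since the members were chosen with earlier results known, their shares here are a description and not a test of the list. The median log2 difference, null minus wild-type, was 0.13 over the members and -0.03 over all genes, with 36 members above and 15 below 0. In 8 members (15.7%) the groups did not overlap in CPM, each time with all 9 null tumors above all 7 wild-type tumors, against 1.56% of all genes without overlap in either direction, 0.917% with null above and 0.648% with null below. These 8 were Mdn1, Rrp12, Tsr1, Noc3l, Polr1a, Rrp9, Pwp2 and Ddx10. In bulk tumors, fewer cells of a type and less RNA per cell cannot be told apart.

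**Figure D1:**
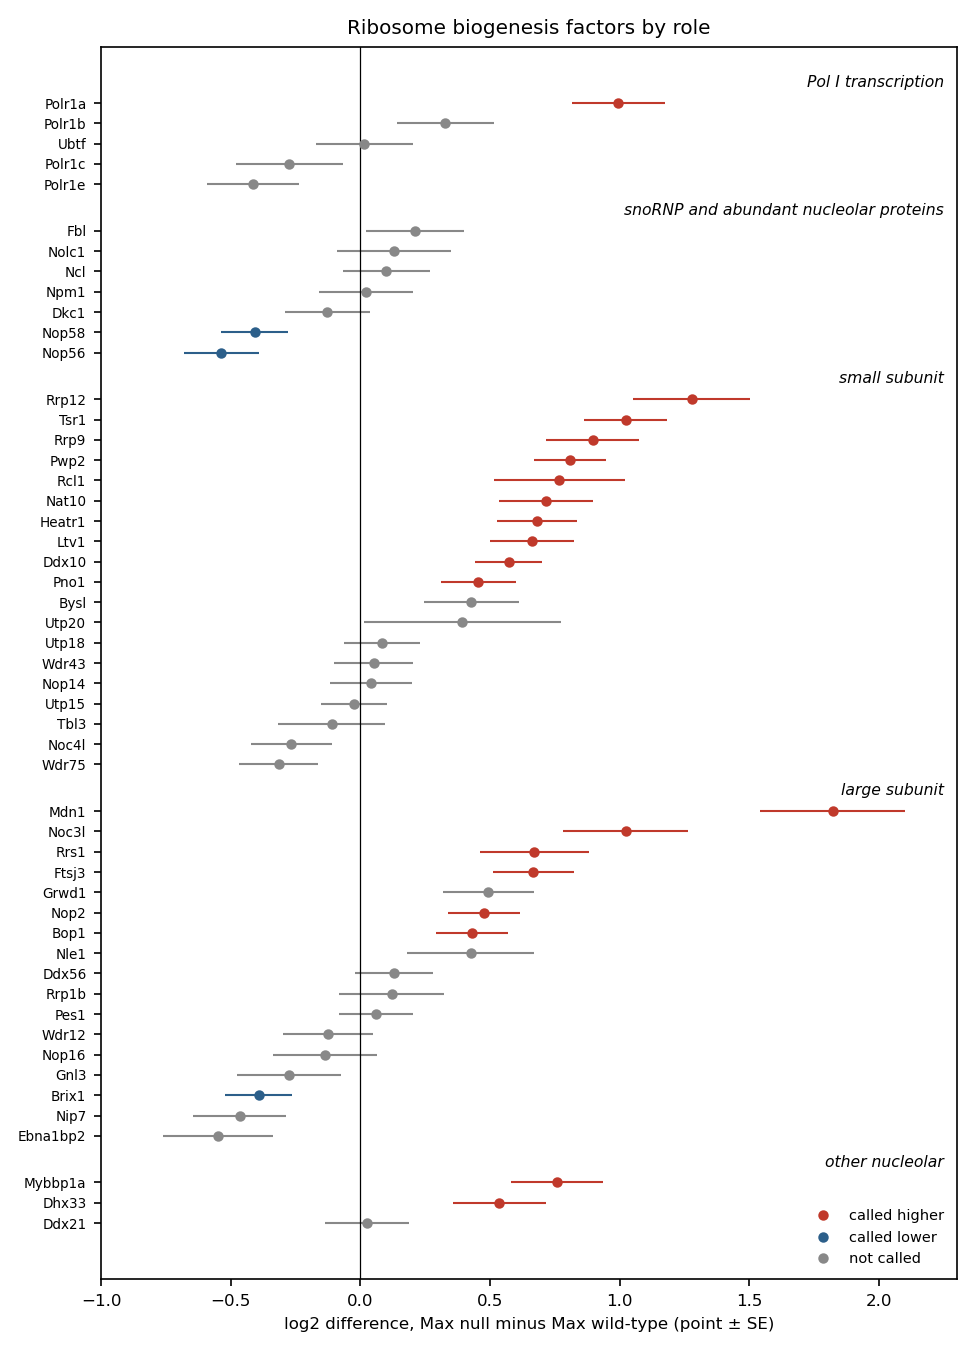
Log2 difference of each of the 51 tested members (horizontal axis, null minus wild-type, point ± SE), grouped by role. Red marks the 19 members called higher in null tumors, blue the 3 called lower and grey the 29 not called, with calls at an adjusted p of 0.05 over 14825 genes. The largest values are those of Mdn1 at 1.82 and Rrp12 at 1.28, and the snoRNP proteins Nop56 and Nop58 sit at -0.54 and -0.41.

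The calls were not equally firm. Of the 22 called members, 13 kept an adjusted p under 0.05 in each of the 16 fits that left out 1 tumor, all of them higher in null tumors: Polr1a, Rrp12, Tsr1, Rrp9, Heatr1, Nat10, Ddx10, Ltv1, Pwp2, Mdn1, Noc3l, Ftsj3 and Mybbp1a. The other 9 lost the call in at least 1 such fit. Without wild-type tumors 2, 4 and 7, the 3 libraries poorest in long transcripts, 7 members were called, all higher, against 1.68% of all genes (0.805% higher). They were Mdn1, Rrp12, Tsr1, Polr1a, Rrp9, Pwp2 and, not called with 16 tumors, Grwd1. With a correction for transcript length in each library, 19 members were called, 18 higher and 1 lower, against 12% of all genes (5.51% higher and 6.5% lower). The multiply aligned share does not overlap between the groups and so cannot be told apart from genotype. With that share in the fit as a covariate, no member was called, against 0.0675% of all genes. In that fit the members' median moved from 0.13 to 0.35, and that of the further biogenesis genes given below from -0.11 to 0.11. Of the members that rose, Rrp12 went from 1.28 to 1.43 and Rcl1 from 0.77 to 1.22. Mdn1 went from 1.82 to 1.15, Nat10 from 0.72 to 0.25 and Dhx33 from 0.54 to 0.20. Nop56, Nop58 and Brix1, which fell, were at -0.34, -0.24 and -0.20.

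Promoters of the members were read for the E-box, because MAX dimers bind it and because 19 members moved in 1 direction. The windows run from 250 bases before to 50 bases after the start site (RefSeq, build GRCm38.p6). Of the 52 members, 46 have at least 1, among them Noc2l, which has no call. A gene with several windows was counted once, as holding the motif if any of them did. CACGTG, which reads the same on both strands, was found for 13 of the 46 members (28.3%), against 11.4% of 10478 tested genes and 8.09% of all genes with a window, and in 7.15% of all single windows. It was found for 7 of 16 members that rose (43.8%), 6 of 26 not called (23.1%) and none of the 3 that fell. The other 3 that rose, Rrp12, Bop1 and Rrs1, have no window. The share among all genes called higher was not counted. By role it was found for 6 of 17 small-subunit, 5 of 16 large-subunit and 2 of 3 other nucleolar members, and for none of the 5 Pol I and 5 snoRNP members. In the 13 members each match lay within 60 bases of the start site, 10 after it and 3 before it. A match is a description of the letters and not evidence of binding. The members were listed as a class of known MYC targets, so their share beside that of other genes is not a test. The 7 members that rose with a match are given as 30 bases of the gene's own strand around the E-box, which is in capitals. The stretches are chr11:74898092-74898121 on the plus strand for Tsr1, chr11:17211540-17211569 on the minus strand for Pno1, chr10:13193092-13193121 on the minus strand for Ltv1, chr6:125131811-125131840 on the plus strand for Nop2, chr4:32657139-32657168 on the plus strand for Mdn1, chr11:72441347-72441376 on the plus strand for Mybbp1a and chr11:71004450-71004479 on the minus strand for Dhx33.
Tsr1: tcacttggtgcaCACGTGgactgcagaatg
Pno1: tgcgctgtacaaccacgCACGTGttcctct
Ltv1: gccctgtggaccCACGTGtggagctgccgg
Nop2: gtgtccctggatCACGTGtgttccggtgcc
Mdn1: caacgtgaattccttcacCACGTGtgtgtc
Mybbp1a: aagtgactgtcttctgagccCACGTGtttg
Dhx33: ccagcacgcctgCACGTGgcgagaaagggg

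Among the Pol I members, only the largest catalytic subunit rose. Polr1a encodes that subunit, and its level was 59.6 to 79.6 CPM (median 64.0) in null and 19.3 to 55.0 CPM (median 30.4) in wild-type tumors. All 9 null tumors lay above wild-type tumor 1, the highest wild-type tumor, and wild-type tumor 2 was lowest. The log2 difference was 0.99 ± 0.18 (SE, adjusted p = 0.00366), or 1.99-fold. With the length correction it was 0.60 (adjusted p = 0.0185), and 0.78 was the value without wild-type tumors 2, 4 and 7 (adjusted p = 0.0426).

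Polr1b encodes the second large subunit, which completes the active centre. It measured 34.2 to 48.9 CPM (median 43.5) in null and 20.9 to 59.4 CPM (median 28.5) in wild-type tumors, a log2 difference of 0.33 ± 0.19 (adjusted p = 0.23). Wild-type tumor 1 was above every null tumor for this gene, 5 wild-type tumors were below every null tumor, and without wild-type tumor 1 the difference was 0.53 (adjusted p = 0.021). Ubtf, the architectural factor that opens rRNA genes, spanned 154 to 258 CPM (median 189) in null and 91.7 to 292 CPM (median 201) in wild-type tumors. The null values lay inside the wild-type range, with a log2 difference of 0.02 ± 0.19 (adjusted p = 0.964). Polr1c, a subunit shared with RNA polymerase III, measured 46.8 to 84.5 CPM (median 55.2) and 46.9 to 138 CPM (median 60.3), a difference of -0.27 ± 0.21 (adjusted p = 0.372). Polr1e, a smaller Pol I subunit, measured 12.6 to 16.02 CPM (median 14.9) and 11.9 to 24.0 CPM (median 21.8), a difference of -0.42 ± 0.18 (adjusted p = 0.11). In both genes the wild-type tumors spread more widely than the null tumors. The median of the 5 genes was 0.02.

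The snoRNP and abundant nucleolar proteins held none of the rises and 2 of the 3 falls. Nop56 and Nop58 are the paired core proteins of the box C/D snoRNPs, which guide ribose methylation. Nop56 measured 130 to 219 CPM (median 169) in null and 173 to 313 CPM (median 273) in wild-type tumors. The groups overlapped, with 5 null tumors below every wild-type tumor and 5 wild-type tumors above every null tumor. It fell by 0.54 ± 0.14 on the log2 scale (adjusted p = 0.0224). Without wild-type tumor 4 its difference was -0.48 (adjusted p = 0.0506), and in no other fit without 1 tumor did its call end. Nop58 measured 99.1 to 158 CPM (median 128) in null and 129 to 207 CPM (median 172) in wild-type tumors, with 6 null tumors below every wild-type tumor. It fell by 0.41 ± 0.13 (adjusted p = 0.0413), and kept the call in 5 of 16 fits without 1 tumor, in which the difference ran from -0.45 to -0.35. With the length correction Nop56 was at -0.40 (adjusted p = 0.0699) and Nop58 at -0.24 (adjusted p = 0.252).

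Fbl encodes fibrillarin, the methyltransferase of the same particle, and was not called. It spanned 91.9 to 154 CPM (median 118) in null and 61.6 to 168 CPM (median 84.8) in wild-type tumors, a log2 difference of 0.21 ± 0.19 (adjusted p = 0.464). Wild-type tumor values reached both below and above those of the null tumors. Ncl, nucleolin, and Npm1, nucleophosmin, are the most abundant nucleolar proteins. Ncl ran from 571 to 865 CPM (median 623) in null and from 422 to 864 CPM (median 554) in wild-type tumors, with a log2 difference of 0.10 ± 0.17 (adjusted p = 0.715). Npm1 ran from 478 to 847 CPM (median 652) and from 457 to 989 CPM (median 642), with a log2 difference of 0.02 ± 0.18 (adjusted p = 0.946). For Ncl 4 wild-type tumors were below every null tumor and 1 null tumor was above every wild-type tumor, and for Npm1 2 wild-type tumors were below and 1 was above the null range. Dkc1, the pseudouridine synthase of box H/ACA particles, measured 52.8 to 91.7 CPM (median 70.7) and 56.5 to 99.9 CPM (median 73.3), a difference of -0.13 ± 0.16 (adjusted p = 0.62). Nolc1, a snoRNP chaperone of the nucleolus and Cajal body, measured 68.5 to 119 CPM (median 84.2) and 42.1 to 149 CPM (median 66.6), a difference of 0.13 ± 0.22 (adjusted p = 0.722). Per length, averaged over all tumors, Npm1 had the highest level of the members at 406 CPM per kb of transcript, followed by Nop56 at 111, Fbl at 90.8, Nop58 at 86.1 and Ncl at 77.8 CPM per kb. The length taken for Ncl was 8202 bases with a coding part of 2121, so its place depends on the transcript chosen. Npm1 is known for many processed pseudogene copies, and their part in its count was not tested. At the other end were Mdn1 at 6.21, Polr1a at 5.62 and Polr1e at 5.55 CPM per kb. Mdn1, the member with the largest rise, was thus among those with the lowest levels per length.

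Small-subunit factors showed the most rises, 10 of 19 (52.6%), with none lower and a median log2 difference of 0.45. Rrp12 encodes a HEAT-repeat protein that accompanies the pre-ribosome to export. Its level was 46.6 to 89.2 CPM (median 59.8) in null and 16.7 to 45.4 CPM (median 23.5) in wild-type tumors. Each null tumor was above each wild-type tumor, of which tumors 1 and 7 were the highest. The log2 difference was 1.28 ± 0.23 (adjusted p = 0.00338), or 2.42-fold. The difference was 1.10 once corrected for length (adjusted p = 0.00766) and 1.31 in the fit that left out wild-type tumors 2, 4 and 7 (adjusted p = 0.0363).

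Tsr1 encodes a GTPase-like protein that keeps the immature small subunit from premature use. It measured 55.4 to 102 CPM (median 72.3) in null and 27.2 to 52.5 CPM (median 34.3) in wild-type tumors. Again the groups did not overlap, with null tumor 4 highest and null tumor 7 lowest of its group. The log2 difference was 1.02 ± 0.16 (adjusted p = 0.00215), or 2.03-fold, and 0.90 without wild-type tumors 2, 4 and 7 (adjusted p = 0.0393). In the GENCODE M21 annotation, 32.3% of the exon bases of Tsr1 are shared with Srr on the other strand, and the strand setting of the counts is not given, so its level is uncertain.

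Rrp9 is the protein that marks the snoRNP needed for the early cuts that free the small-subunit RNA, and Pwp2 belongs to the UTP-B complex of the same early particle. Rrp9 measured 32.6 to 50.2 CPM (median 36.6) in null and 11.2 to 29.4 CPM (median 20.9) in wild-type tumors, a log2 difference of 0.89 ± 0.18 (adjusted p = 0.00579). Pwp2 measured 40.0 to 61.2 CPM (median 51.5) and 25.5 to 39.7 CPM (median 26.4), a difference of 0.81 ± 0.14 (adjusted p = 0.00315). For Pwp2 the wild-type values lay close together except in tumor 1, which reached 39.7 CPM, just under the lowest null tumor. Ddx10, an RNA helicase, showed a smaller rise without overlap, at 46.1 to 76.8 CPM (median 62.1) in null and 35.5 to 45.3 CPM (median 40.9) in wild-type tumors. Its log2 difference was 0.57 ± 0.13 (adjusted p = 0.0107). The gap between the groups was narrow, 46.1 CPM in the lowest null against 45.3 CPM in the highest wild-type tumor.

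**Figure D2:**
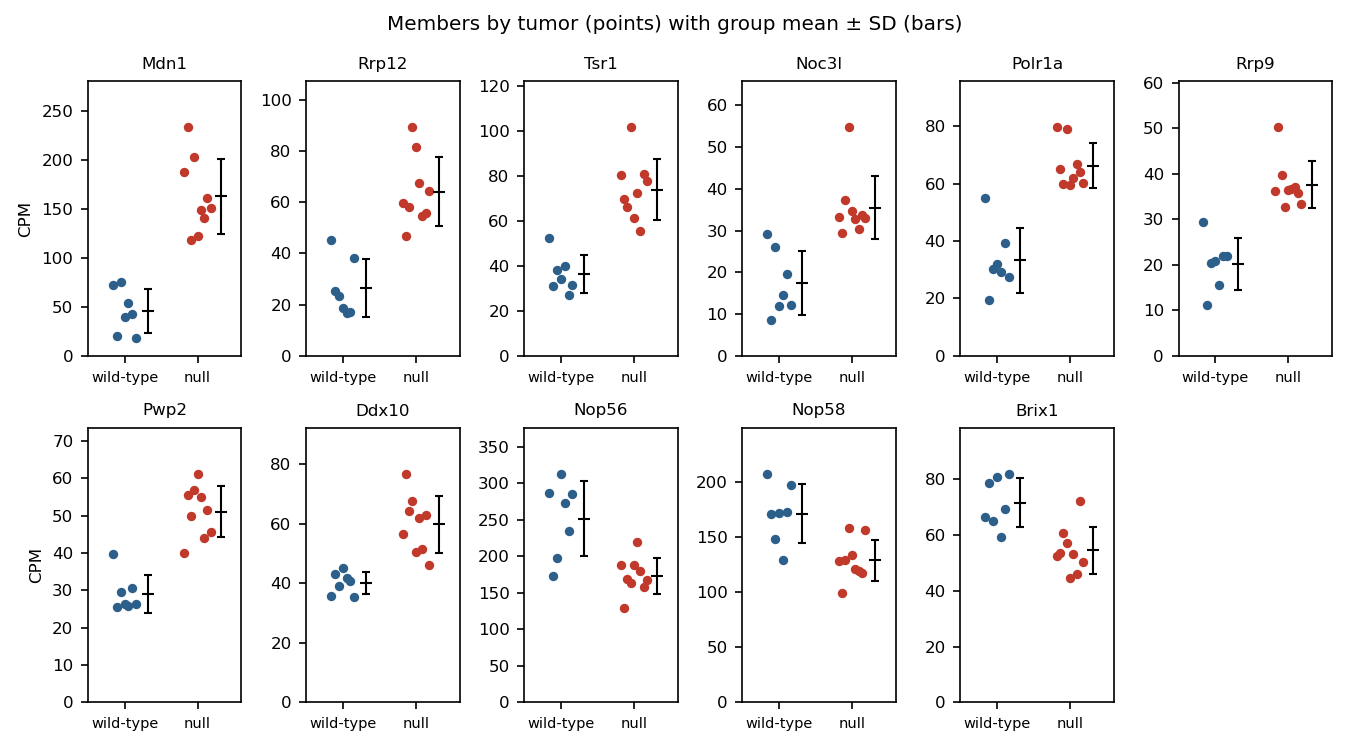
CPM (vertical axis, linear) of the 8 members without overlap and the 3 that fell, with a point for each wild-type (blue) and null (red) tumor and bars for the group mean ± SD. In Mdn1, Rrp12, Tsr1 and Polr1a every null tumor is above every wild-type tumor, and in Nop56, Nop58 and Brix1 the null tumors sit lower with overlap.

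The other 5 small-subunit factors that rose overlapped between groups. Nat10, the acetyltransferase that modifies the small-subunit rRNA, measured 56.1 to 93.4 CPM (median 71.3) in null and 24.7 to 67.2 CPM (median 48.4) in wild-type tumors, a log2 difference of 0.72 ± 0.18 (adjusted p = 0.0169). Heatr1, a UTP-A protein that also acts in Pol I transcription, measured 45.6 to 79.2 CPM (median 67.5) and 31.8 to 50.3 CPM (median 40.3), a difference of 0.68 ± 0.15 (adjusted p = 0.0105). In both genes 7 of 9 null tumors were above every wild-type tumor. Ltv1, a late factor that leaves before the subunit is finished, measured 46.6 to 83.1 CPM (median 58.0) and 24.8 to 48.2 CPM (median 40.9), a difference of 0.66 ± 0.16 (adjusted p = 0.0142). All but 1 null tumor lay above the wild-type range for Ltv1. With the length correction Heatr1 was at 0.36 (adjusted p = 0.127), and without wild-type tumors 2, 4 and 7 Nat10 was at 0.45 (adjusted p = 0.138).

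Rcl1 and Pno1 were nearer the threshold. Rcl1, a cyclase-like protein of the early particle, measured 33.6 to 60.4 CPM (median 42.2) in null and 13.7 to 53.1 CPM (median 18.7) in wild-type tumors. Wild-type tumor 7 was well above the others of its group and above 8 of 9 null tumors. The log2 difference of Rcl1 was 0.77 ± 0.25 (adjusted p = 0.0465), called in 2 of 16 fits without 1 tumor, over which it ran from 0.67 to 1.03. Pno1, the partner of the nuclease that makes the final cut, measured 61.6 to 85.7 CPM (median 69.2) and 37.6 to 64.9 CPM (median 54.4). Its difference was 0.45 ± 0.15 (adjusted p = 0.0419), called in 5 of 16 such fits, over which it ran from 0.39 to 0.51.

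The 9 small-subunit factors not called spanned -0.31 to 0.43. Utp20, a very large scaffold protein, measured 87.0 to 323 CPM (median 131) in null and 59.2 to 354 CPM (median 82.1) in wild-type tumors. Wild-type tumor 3 alone reached 354 CPM, and the next wild-type tumor was at 122 CPM. Its difference was 0.39 ± 0.38 (adjusted p = 0.498) with all tumors and 0.97 (adjusted p = 0.0294) without wild-type tumor 3. Wdr43, a UTP-A protein, measured 72.9 to 108 CPM (median 83.9) and 53.4 to 116 CPM (median 88.7), a difference of 0.05 ± 0.15 (adjusted p = 0.844). Subunits of the same complex were not called together. Of UTP-A, Heatr1 was called and Utp15, Wdr43 and Wdr75 were not (-0.02, 0.05 and -0.31). Of UTP-B, Pwp2 was called and Tbl3 and Utp18 were not (-0.11 and 0.08). The further list given below holds more subunits of both, none of them called. Of UTP-B, Utp6, Wdr3 and Wdr36 were above 0 as Pwp2 was (0.41, 0.45 and 0.29, adjusted p = 0.0555, 0.0804 and 0.107). Of UTP-A, Nol11 and Cirh1a were at -0.04 and -0.03. These differences between subunits were not tested against each other. Exons of Tbl3 share 37.3% of their bases with Noxo1, and those of Bysl share 9.37% with Ccnd3, on the other strand.

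Large-subunit factors ranged more widely, with 6 of 17 higher (35.3%), 1 lower (5.88%) and a median of 0.13. Mdn1 had the largest difference of all members. It encodes midasin, a giant AAA-type ATPase that strips assembly factors from the immature large subunit. Its level was 118 to 233 CPM (median 151) in null and 18.2 to 75.4 CPM (median 42.6) in wild-type tumors. Null tumor 2 was highest and wild-type tumors 7 and 2 were lowest, at 18.2 and 20.2 CPM, and the ranges were well apart. The log2 difference was 1.82 ± 0.28 (adjusted p = 0.00213), or 3.53-fold. Its transcript of 17959 bases is the longest among the members, and the difference was 1.27 with the length correction (adjusted p = 0.00288) and 1.41 without wild-type tumors 2, 4 and 7 (adjusted p = 0.0161).

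Noc3l encodes a nucleolar protein that pairs with Noc2l as the large-subunit precursor leaves the nucleolus. Noc3l measured 29.5 to 54.7 CPM (median 33.3) in null and 8.54 to 29.2 CPM (median 14.5) in wild-type tumors, with a log2 difference of 1.02 ± 0.24 (adjusted p = 0.0117). The ranges nearly touch, at 29.5 CPM in the lowest null and 29.2 CPM in the highest wild-type tumor. Without wild-type tumors 2, 4 and 7 the difference was 0.67 (adjusted p = 0.11).

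Ftsj3, an rRNA methyltransferase, measured 82.9 to 103 CPM (median 97.1) in null and 44.1 to 102 CPM (median 55.5) in wild-type tumors, a log2 difference of 0.67 ± 0.16 (adjusted p = 0.0115). Wild-type tumor 1 lay at the top of the null range for Ftsj3, and the other 6 wild-type tumors lay below every null tumor. Rrs1, which helps to place the small 5S particle in the large subunit, measured 38.0 to 68.2 CPM (median 47.9) and 19.4 to 50.8 CPM (median 29.2), a difference of 0.67 ± 0.21 (adjusted p = 0.038). It was called in 8 of 16 fits without 1 tumor (0.58 to 0.85). Nop2, another rRNA methyltransferase, measured 55.9 to 66.6 CPM (median 61.5) and 26.4 to 56.9 CPM (median 47.0). For Nop2 all but 1 null tumor were above the wild-type range. Its difference was 0.48 ± 0.14 (adjusted p = 0.0312), and the call ended without null tumor 1, 4 or 7, at 0.47, 0.46 and 0.47 (adjusted p = 0.0518, 0.052 and 0.0524).

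Bop1 forms the PeBoW complex with Pes1 and Wdr12. Bop1 measured 43.1 to 73.7 CPM (median 67.3) in null and 34.0 to 56.7 CPM (median 48.4) in wild-type tumors, a log2 difference of 0.43 ± 0.14 (adjusted p = 0.0447, called in 3 of 16 fits without 1 tumor, 0.36 to 0.49). Null tumor 9 was the only null tumor inside the wild-type range. Pes1 measured 87.6 to 120 CPM (median 101) and 75.4 to 152 CPM (median 96.2), a difference of 0.06 ± 0.14 (adjusted p = 0.799), and Wdr12 was at -0.13 ± 0.17 (adjusted p = 0.653). Brix1, which binds the precursor of the large-subunit rRNA, was the only large-subunit factor that fell. It measured 44.7 to 72.2 CPM (median 53.3) in null and 59.2 to 82.0 CPM (median 69.3) in wild-type tumors, a fall by 0.39 ± 0.13 (adjusted p = 0.0439). Of the 9 null tumors, 7 were below every wild-type tumor, and the call held in 4 of 16 fits without 1 tumor (-0.45 to -0.36). Without wild-type tumors 2, 4 and 7 Brix1 was at -0.25 (adjusted p = 0.325). Ebna1bp2, a nucleolar assembly factor, measured 69.6 to 113 CPM (median 87.9) in null and 91.6 to 281 CPM (median 106) in wild-type tumors. Its difference of -0.55 ± 0.21 (adjusted p = 0.0809) was the lowest of any member. The 10 large-subunit factors not called reached up to Grwd1, a histone-binding WD-repeat protein of the pre-ribosome, at 0.49 ± 0.18 (adjusted p = 0.0609). Without wild-type tumors 2, 4 and 7 Grwd1 was at 0.76 (adjusted p = 0.0364).

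The other nucleolar proteins included 2 rises. Mybbp1a, a nucleolar regulator of rRNA synthesis and of p53, measured 175 to 258 CPM (median 201) in null and 93.3 to 227 CPM (median 112) in wild-type tumors. Wild-type tumor 1 was the only one of its group inside the null range. The log2 difference was 0.76 ± 0.18 (adjusted p = 0.0114). Dhx33, an RNA helicase, measured 51.1 to 67.7 CPM (median 60.7) and 24.2 to 62.2 CPM (median 40.1), a difference of 0.54 ± 0.18 (adjusted p = 0.0497, called in 2 of 16 fits without 1 tumor, 0.44 to 0.67). The difference of Dhx33 was 0.33 with the length correction (adjusted p = 0.132) and 0.27 without wild-type tumors 2, 4 and 7 (adjusted p = 0.307). Ddx21, the helicase that couples Pol I and Pol II transcription of ribosome genes, spanned 100.2 to 182 CPM (median 130.4) and 87.1 to 199 CPM (median 124), with a difference of 0.03 ± 0.16 (adjusted p = 0.929).

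Among the members, small-subunit factors were higher in null tumors by a larger median than large-subunit factors. The median log2 difference was 0.45 for 19 small-subunit and 0.13 for 17 large-subunit factors, which are 0.32 apart. The mean log2 CPM of the small-subunit factors was 5.67 to 5.97 in null (5.77 ± 0.089, SD, n = 9) and 5.05 to 5.59 in wild-type tumors (5.31 ± 0.17, n = 7), without overlap. The mean log2 CPM of the large-subunit factors was 5.68 to 5.93 in null (5.75 ± 0.080) and 5.12 to 5.86 in wild-type tumors (5.45 ± 0.27), with wild-type tumors 1 and 7 inside the null range. Within each tumor, the small-subunit mean minus the large-subunit mean was 0.02 ± 0.045 (-0.06 to 0.08) in null and -0.13 ± 0.14 (-0.34 to 0.08) in wild-type tumors. Wild-type tumors 7 and 1 were lowest in this measure and wild-type tumor 3 lay inside the null range. The distance between the medians depended on the libraries and on transcript length. It was 0.20 without wild-type tumor 7, 0.22 without wild-type tumor 1 and 0.51 without wild-type tumor 3. Small-subunit factors have the longer transcripts, with a median of 3389 against 2664 bases, and with the length correction the medians were 0.36 and 0.26, or 0.098 apart. The further list given below did not show the same order. Its median log2 differences were -0.05 for 44 small-subunit and 0.0004 for 49 large-subunit genes. Members that rose had a median transcript length of 3389 bases, those not called 2960 and the 3 that fell 1877, against 2875.5 for all genes tested. The direction of calls ran with length among all genes too, with a median of 4411.5 bases for those called higher and 1820 for those called lower.

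**Figure D3:**
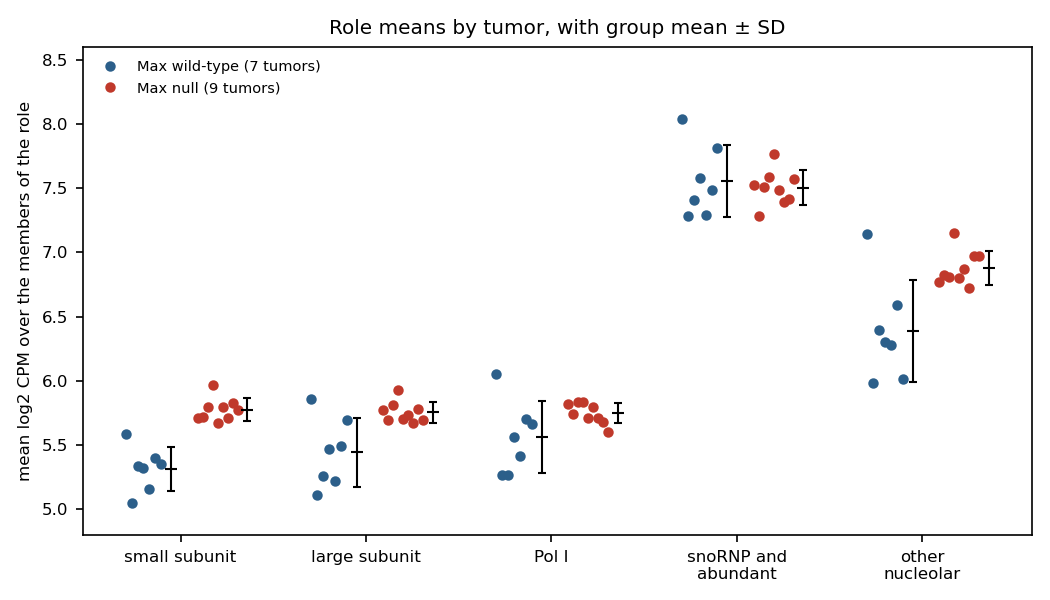
Mean log2 CPM of the members of each role in each tumor (points), wild-type in blue beside null in red, with bars for the group mean ± SD. Roles are not compared in level, since genes differ in length. The small-subunit points of the null tumors (5.67 to 5.97) lie above those of all wild-type tumors (5.05 to 5.59), and in each other role wild-type tumor 1, the highest blue point, lies inside or above the null range.

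Within the wild-type group, levels of the members ran with Mycl, listed under its older symbol Mycl1. This relation was chosen after its values were seen and is a description. Mycl measured 18.7 CPM in wild-type tumor 2, 146 in tumor 3, 226 in tumor 5, 466 in tumor 6, 556 in tumor 4, 999 in tumor 7 and 2832 in tumor 1. The mean log2 CPM of the 51 members followed nearly the same order, from 5.46 in tumor 2 over 5.65, 5.56, 5.82, 5.76 and 5.88 to 6.15 in tumor 1. Over these 7 tumors Pearson's r with log2 Mycl was 0.93 and Spearman's rho 0.93, r was 0.87 over 5 tumors without tumors 1 and 2, and 44 of 51 members had a rho above 0. The share of all genes with a rho above 0 was not counted, so the relation is not shown to be particular to the members. In the same tumor order, the mean log2 CPM of 139 further biogenesis genes, given below, was 5.48, 5.36, 5.33, 5.55, 5.59, 5.89 and 5.60. These points share library depth and quality, and the lowest tumor in both measures, tumor 2, had the fewest reads of the group. Wild-type tumor 1 was the highest of its group for 26 of the 51 members, and tumor 2 the lowest for 18.

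In the null tumors the members did not rise with Mycl. Their Mycl levels were 25.2 to 207 CPM, and the mean log2 CPM of the members stayed between 5.99 and 6.23, above that of every wild-type tumor but tumor 1. Pearson's r was -0.40 and rho -0.07 over 9 tumors, and 15 of 51 members had a rho above 0. The share of all genes with a rho above 0 was not counted here either. Mycl also spanned less in null than in wild-type tumors (18.7 to 2832 CPM), which limits what the null values can show. Mycl itself fell by 2.92 ± 0.70 on the log2 scale in null tumors (adjusted p = 0.0135). Null tumor 4 had the lowest Mycl of its group, the highest Mycn (39.9 CPM) and the highest mean of the members (6.23), and was the top null tumor for 15 members. Myc and Mycn were not called (-0.36 ± 0.32, adjusted p = 0.455, and 0.61 ± 0.68, adjusted p = 0.562). The difference between the groups in this relation was not tested.

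**Figure D4:**
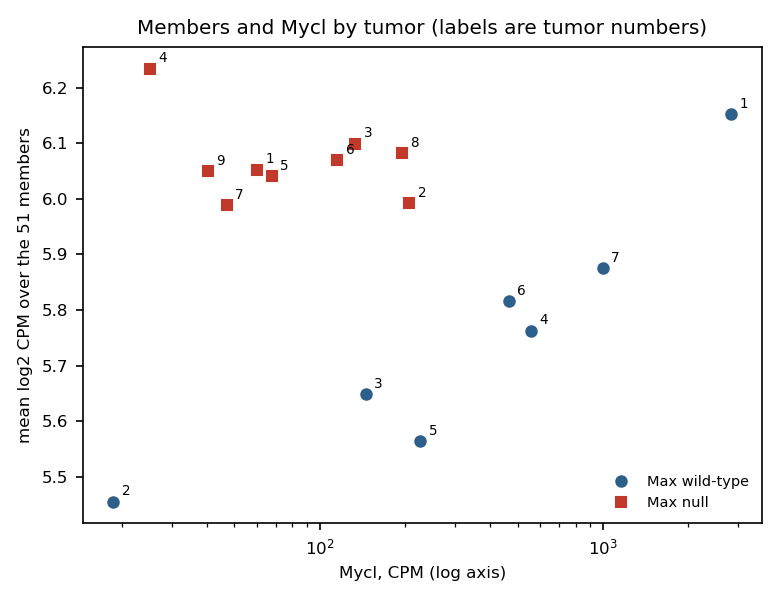
Mean log2 CPM of the 51 members (vertical axis) against Mycl CPM (horizontal log axis) in each tumor, labelled by tumor number. Wild-type tumors run from 5.46 at 18.7 CPM of Mycl to 6.15 at 2832 CPM, and null tumors lie between 5.99 and 6.23 with Mycl at 25.2 to 207 CPM.

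Among the 19 members that rose, some wild-type tumors held the low end more often than others. These members were called higher in null tumors, so low wild-type values follow from that choice. Wild-type tumor 2 was among the 3 lowest tumors for 17 of them, wild-type tumors 5 and 7 for 11 each and wild-type tumor 4 for 9. Null tumor 4 was the highest tumor for 8 of them. The members together took 0.455% to 0.540% of the reads in genes in null and 0.359% to 0.547% in wild-type tumors. That range was wider in wild-type tumors at both ends, with tumor 1 highest and tumor 2 lowest.

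**Figure D5:**
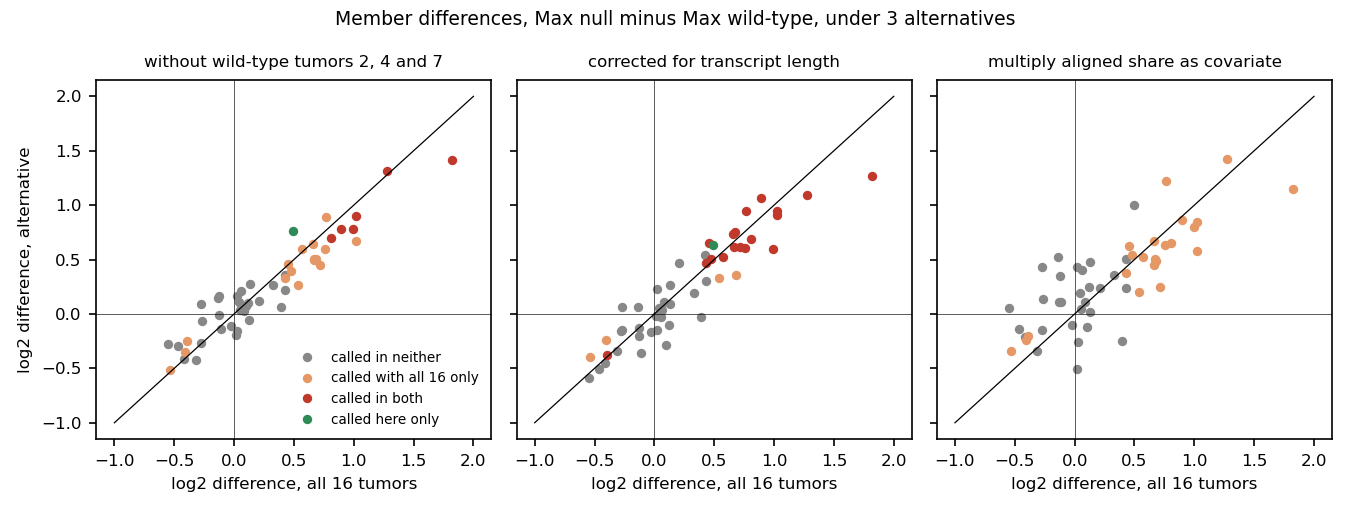
Log2 difference of the 51 members with all 16 tumors (horizontal axis) against that under each of 3 alternatives (vertical axis, null minus wild-type), with the line of equal values. Colors give the calls at an adjusted p of 0.05: red in both, orange with all 16 tumors only, green (Grwd1) only under the alternative, grey in neither. Mdn1, the point farthest to the right, moves from 1.82 to 1.41, 1.27 and 1.15, and with the covariate no point is red.

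Other genes of ribosome production were called about as often as genes at large. A further list of 154 symbols, which includes older and newer names of the same genes, had 140 in the files and 139 tested. Of these, 9 rose (6.47%), 14 fell (10.1%) and 116 were not called, with a median of -0.11, against 7.4% higher and 8.64% lower among all genes. The rises with the smallest p were those of Nol6, a small-subunit factor of the early particle (1.07 ± 0.20, adjusted p = 0.00391), Urb1, a large-subunit factor (0.93 ± 0.20, adjusted p = 0.0085), Las1l, a subunit of the nuclease that cuts between the large-subunit RNAs (0.55 ± 0.13, adjusted p = 0.0112), and Gnl3l, a nucleolar GTPase (0.69 ± 0.16, adjusted p = 0.0119). These 4 overlapped between groups.

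The falls with the smallest p included 3 Pol I genes. Taf1d, a subunit of the Pol I promoter selectivity factor, measured 36.3 to 59.5 CPM in null and 65.7 to 204 CPM in wild-type tumors without overlap, and fell by 1.42 ± 0.20 (adjusted p = 0.0016). Twistnb, a Pol I subunit, also fell without overlap, by 0.68 ± 0.16 (adjusted p = 0.0128). Rsl1d1, a nucleolar protein, fell by 0.66 ± 0.16 (adjusted p = 0.0141), and Znrd1, a small Pol I subunit, by 0.94 ± 0.26 (adjusted p = 0.0231). In this list 4 of 15 Pol I genes fell and 1, Cd3eap, rose, while 0 of 20 exosome and trimming genes and 0 of 11 snoRNP genes were called. The 15 include Polr2e, Polr2f, Polr2h, Polr2k and Polr2l, of which only Polr2k was called, with a fall of 0.86 ± 0.24 (adjusted p = 0.0264). Of 44 small-subunit genes 3 rose and 5 fell, and of 49 large-subunit genes 5 rose and 5 fell. Without wild-type tumors 2, 4 and 7 only Taf1d (-1.30, adjusted p = 0.0218) and Cd3eap (0.64, adjusted p = 0.0405) were called in this list. Within Pol I, therefore, Polr1a and Cd3eap were higher and Taf1d lower in null tumors both with all 16 tumors and without those 3.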

How the data were processed

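RNA from 16 mouse lung tumors was sequenced from 500 ng of total RNA per library, per the labels' protocols. Each tumor has a file of deposited counts, whole reads for 23284 gene symbols. Per the submitters' processing notes, HTSeq 0.6.1, TopHat2 2.0.12 and bcl2fastq 1.8.4 were used with the build mm9. Annotation, strand setting and filters: not given in the sources used here. Rows of HTSeq totals (29.2% to 45.6% of a library's reads) stayed out of library sizes and tests.

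Members and lists were chosen with earlier results of these data known. edgeR 4.0.16 (R 4.3.3, quasi-likelihood F test, TMM, filterByExpr) was fitted on all 14825 genes that passed the filter, with Benjamini-Hochberg adjustment over all of them at 0.05. An SE is the log2 difference divided by the square root of F. CPM use TMM-scaled library sizes, and means of log2 CPM a prior count of 2. Member counts of at least 73 keep counting error small against the spread between tumors. The scripts were tested on simulated data, in which edgeR recovered 35.0% of genes changed by a log2 of 1 and 86.2% at 2. The changed genes were drawn from all genes that passed the filter, so these shares are not those of the members. A gene not called may therefore still have changed.

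The alternatives were DESeq2 1.42.0, limma-voom (limma 3.58.1) with sample quality weights, RLE and upper-quartile factors, other filters, the tumor number as a block, the multiply aligned share as a covariate, leaving out tumors, and a correction for transcript length. That correction used a lowess curve (span 0.3) of relative expression on GENCODE M21 length as an offset, and 98.9% of tested genes had a length. Full values are given for called members and a fixed set of others, and for the 2 most abundant uncalled members of each role. From the further list the 4 called genes with the smallest p in each direction are named. Other members and further genes named were chosen after their values were seen.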

Additional observations from a re-analysis of the deposited data

Results flagged for a closer look

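In 12 of 130 groups of tumors tested, 1 tumor stood apart from the rest of its group (Dixon's criterion at 95%), and chance alone flags about 1 in 20. Among the members, wild-type tumor 1 stood above its group for Ftsj3 (102 CPM, the others 44.1 to 57.3), Mybbp1a (227 CPM, the others 93.3 to 119) and Pwp2 (39.7 CPM, the others 25.5 to 30.8). Wild-type tumor 3 stood above its group for Utp20 (354 CPM, the others 59.2 to 122). Among null tumors, tumor 4 stood out for Noc3l (54.7 CPM, the others 29.5 to 37.4) and for the mean log2 CPM of all members (6.23, the others 5.99 to 6.10). Tumor 2 stood out for Rrp9 (50.2 CPM, the others 32.6 to 39.7), tumor 3 for Polr1c (84.5 CPM, the others 46.8 to 62.6), and tumor 9 was low for Bop1 (43.1 CPM, the others 59.4 to 73.7).

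Library properties stood apart in 2 tumors. The share of reads in genes counted for Rn45s was 0.791% in null tumor 3 (the others 0.121% to 0.327%). In wild-type tumor 4 it was 2.74% (the others 0.174% to 1.12%). These reads were not separated from mature rRNA. Null tumor 3 also had the lowest correlation of relative expression with transcript length among null tumors, at -0.075 (the others 0.114 to 0.226).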

How the results depend on the processing

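All 22 calls held with DESeq2-style (RLE) factors and with DESeq2, 19 with upper-quartile factors or no filter, 20 with the stricter filter or limma-voom and 18 with the length correction. Calls of falls numbered 1 with limma-voom, 1 without the filter and 1 with the length correction, in place of 3. DESeq2 called 37 further biogenesis genes in place of 23. No called member changed sign under any alternative.

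Replicate block: with the tumor number as a block, 318 genes (221 higher, 97 lower), 4 members (4 higher, 0 lower) and 3 further biogenesis genes were called. The numbers do not pair the tumors: 2 of 7 same-numbered pairs correlated above 0.1, and 0 wild-type tumors correlated best with their own number. With the share of multiply aligned reads in the fit, 10 genes (8 higher, 2 lower), 0 members (0 higher, 0 lower) and 0 further genes were called, and the small-subunit median was 0.0809 above the large-subunit one. That distance was 0.0978 with the length correction and 0.226 without wild-type tumors 2, 4 and 7, where 256 genes (123 higher, 133 lower), 7 members (7 higher, 0 lower) and 2 further genes were called.

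Without 1 tumor, 1471 to 3033 genes (679 to 1463 higher, 792 to 1570 lower), 14 to 23 members (13 to 21 higher, 0 to 3 lower) and 12 to 33 further genes were called, and the distance was 0.199 to 0.509. The 1471 genes are without wild-type tumor 4, 1555 without wild-type tumor 7, and the 14 members without null tumor 7.

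Some uncalled members changed sign. Upper-quartile factors gave -0.0059 for Ubtf, -0.013 for Npm1 and -0.0014 for Ddx21. Limma-voom gave 0.052 for Tbl3, 0.057 for Nop16, 0.028 for Wdr12 and -0.0012 for Ddx21. No filter gave 0.015 for Utp15, and the replicate block -0.011 for Npm1. The covariate gave 0.43 for Polr1c, -0.51 for Ubtf, 0.11 for Dkc1, -0.12 for Ncl, -0.25 for Utp20, 0.14 for Noc4l, 0.11 for Tbl3, 0.52 for Nop16, 0.35 for Wdr12, 0.058 for Ebna1bp2 and -0.26 for Ddx21. The length correction gave 0.060 for Polr1c, -0.023 for Ubtf, -0.28 for Ncl, -0.031 for Utp20, -0.033 for Wdr43, 0.060 for Nop16, -0.098 for Rrp1b and -0.15 for Ddx21. Without wild-type tumors 2, 4 and 7 the values were 0.087 for Polr1c, -0.19 for Ubtf, -0.057 for Nolc1, 0.14 for Nop16, 0.16 for Wdr12 and -0.16 for Ddx21. Without 1 tumor, Ubtf ran from -0.11 to 0.15, Npm1 from -0.048 to 0.14, Nop14 from -0.033 to 0.094, Wdr43 from -0.029 to 0.16, Tbl3 from -0.19 to 0.041, Utp15 from -0.072 to 0.038, Nop16 from -0.22 to 0.052, Wdr12 from -0.21 to 0.0044 and Ddx21 from -0.058 to 0.17. The cause was not tested.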
